A study of Mus musculus with 19 samples.

Results

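Hearts of wild-type (WT) mice at postnatal day 7 (P7) and postnatal day 21 (P21) were compared gene by gene, to describe how expression changed over the second and the third week after birth. The genes described are those that reached 1 TPM or more in 3 or more of the 9 libraries, 14026 of the 56066 genes in the table. This filter did not use the age labels, but a gene high at a single age could pass it. The genes and the gene lists were chosen with earlier results of these data known. TPM is a level per transcript length within a library. The WT P7 group held 5 libraries (replicates 1, 3, 72, 76 and 77) and the WT P21 group held 4 (replicates 2, 3, 57 and 60), all from whole heart, and the labels named no sex or treatment for them. The series also held 3 WT heart libraries at P1 and, at P7 and at P21, 3 heart libraries labelled as a conditional PDK1 knockout (cKO). PDK1 can stand for the product of Pdpk1 or of Pdk1, and the labels gave neither the gene symbol nor the Cre line. P21 replicate 63 was left out, since its genotype label read cKO and its title, unlike those of the cKO libraries, held no KO. Titles of P7 replicates 1 and 3 and of P21 replicates 2 and 3 held a word or letter code, and the titles of the other 5 libraries were plain numbers. The code in P21 replicates 2 and 3 was B6, a usual short name of a mouse strain; no other title held it and no label gave a strain, so a strain difference between these libraries and the others was not tested. Title style was a term of the model. Separate animals were not stated, and the p-values measure the spread between libraries, which may be technical.

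In these weeks a mouse pup grows towards weaning, and the heart is known to pass from growth by cell division to growth by enlargement of its muscle cells. Cardiomyocytes replace fetal forms of their contractile proteins, build up the sarcoplasmic reticulum and the T-tubules that couple excitation to contraction, and fill with mitochondria that burn fatty acids, lactate and ketone bodies. Connective tissue, vessels and resident immune cells mature beside them.

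The libraries were heart by their content: 12 of 12 cardiomyocyte markers were among the genes tested, and Tnnt2, the troponin T of heart muscle, stood at 5605, 6162, 6590.2, 5963 and 6276 at P7 and 10325, 10845, 11265 and 10974 at P21 TPM after scaling. Replicates of an age resembled each other more than the other age, with correlations across genes of log2 levels of 0.968 to 0.983 within P7, 0.973 to 0.983 within P21 and 0.913 to 0.93 between the ages, and these correlations share all genes and carry no test. Between 13364 and 13797 genes per library reached 1 TPM at P7 and between 12422 and 12916 at P21. The 10 most abundant genes held 30.9% to 33.3% of all TPM at P7 and 39.6% to 41.5% at P21, and transcripts of the mitochondrial genome held 17.2% to 19.3% at P7 and 22.6% to 24.2% at P21. Since TPM of a library sum to a fixed total, a larger share for a few genes lowers the TPM of the others, and each library was therefore divided by its median ratio to the 9 libraries, 1.11 to 1.28 at P7 and 0.744 to 0.871 at P21. Levels below are TPM after this scaling unless they are called deposited TPM, and a log2 change is the difference of log2(scaled TPM + 1) between P21 and P7, a scale that understates the change of genes with low levels. TPM keep no read depth, so the depth behind each value is unknown.

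At P21 3973 genes were higher and 3885 were lower than at P7 (limma, Benjamini-Hochberg adjusted p under 0.05 over 14026 genes), 28.3% and 27.7% of the genes tested. Most of these differences were small, with a median size of 0.53 on the log2 scale among the called genes. A test for a change of more than 2-fold (limma treat) passed 245 genes higher and 332 lower, 1.75% and 2.37% of the genes tested. For 23.1% of the genes every P21 library stood above every P7 library, and for 22.3% every P21 library stood below. The scale decides much of the balance between the directions: on TPM as deposited the median gene changed by -0.49 in place of -0.01, 1192 genes were called higher (8.5%) and 9341 lower (66.6%), and 1836 of the 3973 higher calls had a negative change. None of the 3885 lower calls had a positive change on that scale. A rise below is therefore a rise relative to the median gene, and for most groups of genes the counts on deposited TPM are given beside the scaled ones.

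On the scaled values the direction of change moved with the level of a gene. Of 93 genes with a level above 1000 TPM, as the mean of both ages, 84.9% rose and 3.2% fell, with a median log2 change of 0.70. These shares rest on the scale and were not counted on another. Of such genes, Tpm1, Tnnt2 and Myh6 changed by 1.04, 0.84 and 0.69 on scaled values and by 0.46, 0.26 and 0.11 on deposited TPM. None of them passed after quantile normalization, as given below. In the 742 genes between 100 and 1000 TPM 49.6% rose and 22.8% fell, while of the 4887 genes under 5 TPM 20.2% rose and 28.1% fell. Falls of more than 2-fold made up 2.8% of the genes under 5 TPM (135 genes), 2.2% of those between 100 and 1000 TPM and 1.1% of those above 1000 TPM (1 gene), against 2.37% of all genes tested. By annotation, 28.6% of 12363 protein-coding genes rose and 29.6% fell, and of 911 long non-coding genes 28.1% rose and 14.6% fell. By transcript length, 34.4% of the 3169 genes of 1000 to 2000 bases rose and 24.6% fell, against 22.6% and 32.5% of the 3297 genes of 4000 to 8000 bases.

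**Figure D1:**
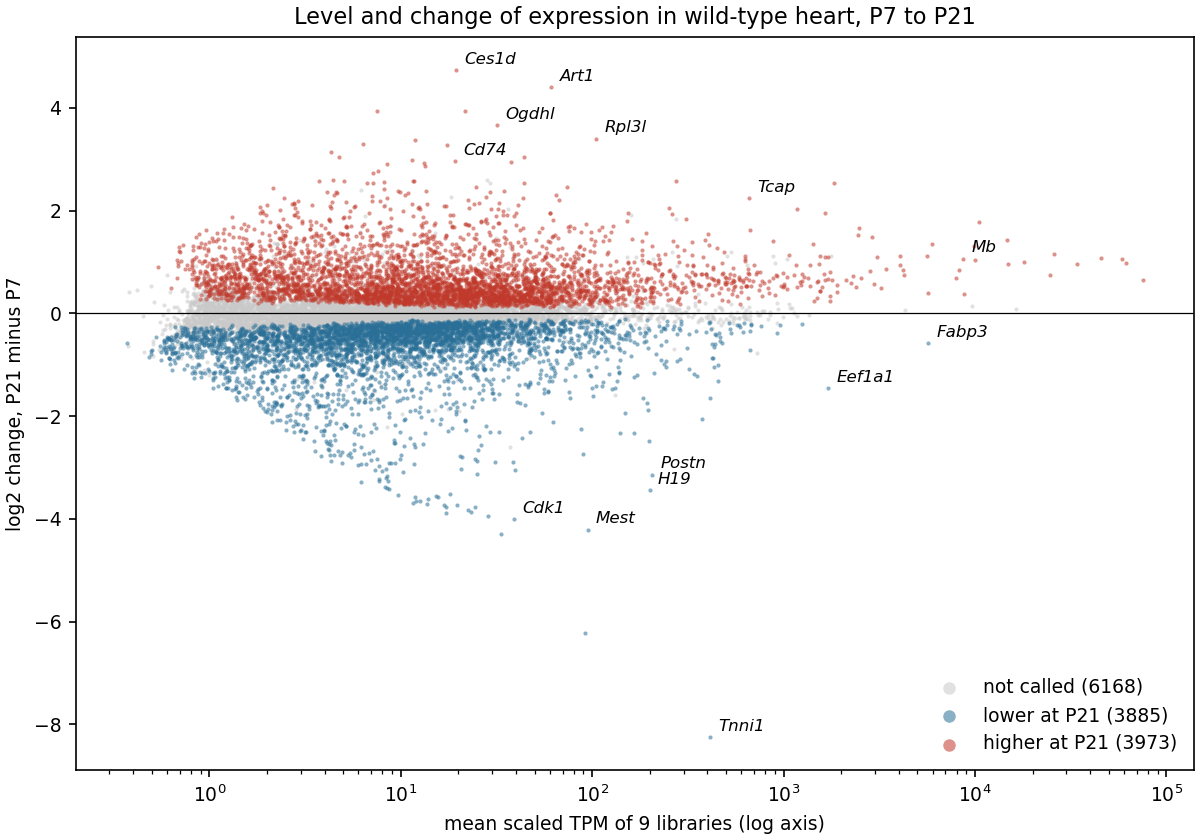
Change between the ages against level for the genes tested, with the mean scaled TPM of the 9 libraries on a log axis (x) and the log2 change from P7 to P21 (y). Points are genes, coloured by call (3973 higher, 3885 lower), and 14 genes discussed in the text are named; the cloud of abundant genes above 1000 TPM lies mostly above 0 and Tnni1 lies at -8.25.

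The largest changes among genes with an assigned name were a loss of a fetal troponin and of mitotic genes, and a gain of a few metabolic enzymes and tissue-restricted proteins. Ces1d, a carboxylesterase that hydrolyses lipid esters, stood at 0.415, 0.490, 0.199, 0.779 and 1.63 at P7 and 35.9, 49.2, 35.3 and 50.5 at P21, and no P21 library came near the P7 range (log2 change 4.73, SE 0.22). Art1, an ADP-ribosyltransferase of the muscle cell surface, stood at 2.62, 5.87, 6.98, 6.55 and 6.11 at P7 and 124, 131, 132 and 135 at P21, so that the 4 P21 hearts lay within a narrow band far above all P7 hearts (log2 change 4.40, SE 0.18). Ogdhl, a paralog of the E1 subunit of the 2-oxoglutarate dehydrogenase complex, stood at 4.29, 3.61, 4.78, 3.94 and 5.30 at P7 and 63.7, 56.5, 85.6 and 59.9 at P21, and rose by 3.66 on the log2 scale (SE 0.12, adjusted p = 8.21e-08 in limma). Xdh, the xanthine dehydrogenase that ends purine breakdown, went from 1.51 ± 0.297 (SD, n = 5) to 24.8 ± 5.26 (n = 4), and Csdc2, an RNA-binding cold shock domain protein, from 2.82 ± 0.540 to 35.5 ± 3.97. Phkg1, the catalytic subunit of muscle phosphorylase kinase, rose by 2.98 and Psme4, an activator of the proteasome, by 1.95 on the log2 scale; the P21 values of Psme4 spanned only 67.7 to 70.4. In absolute level, leaving out mt-, haemoglobin and placeholder-named genes, the biggest gains were those of Tpm1 and Mb. Tpm1, alpha-tropomyosin, stood at 6169, 5979, 7831, 6973 and 7384 at P7 and 13412, 13964, 15015 and 13269 at P21, and Mb, myoglobin, at 5188, 5416, 6669.5, 6147 and 6100.3 at P7 and 11783, 12154, 13296 and 11569.5 at P21. The biggest losses in level besides Tnni1 were those of Fabp3, the fatty acid binding protein of heart, which fell from 6691 ± 607 to 4413 ± 336, and of Eef1a1, a translation elongation factor, which fell from 2377 ± 40.4 to 869.6 ± 99.9. Tmsb10, an actin-binding thymosin, and Vim, the intermediate filament of mesenchymal cells, fell by 2.05 and 1.65 on the log2 scale.

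**Figure D2:**
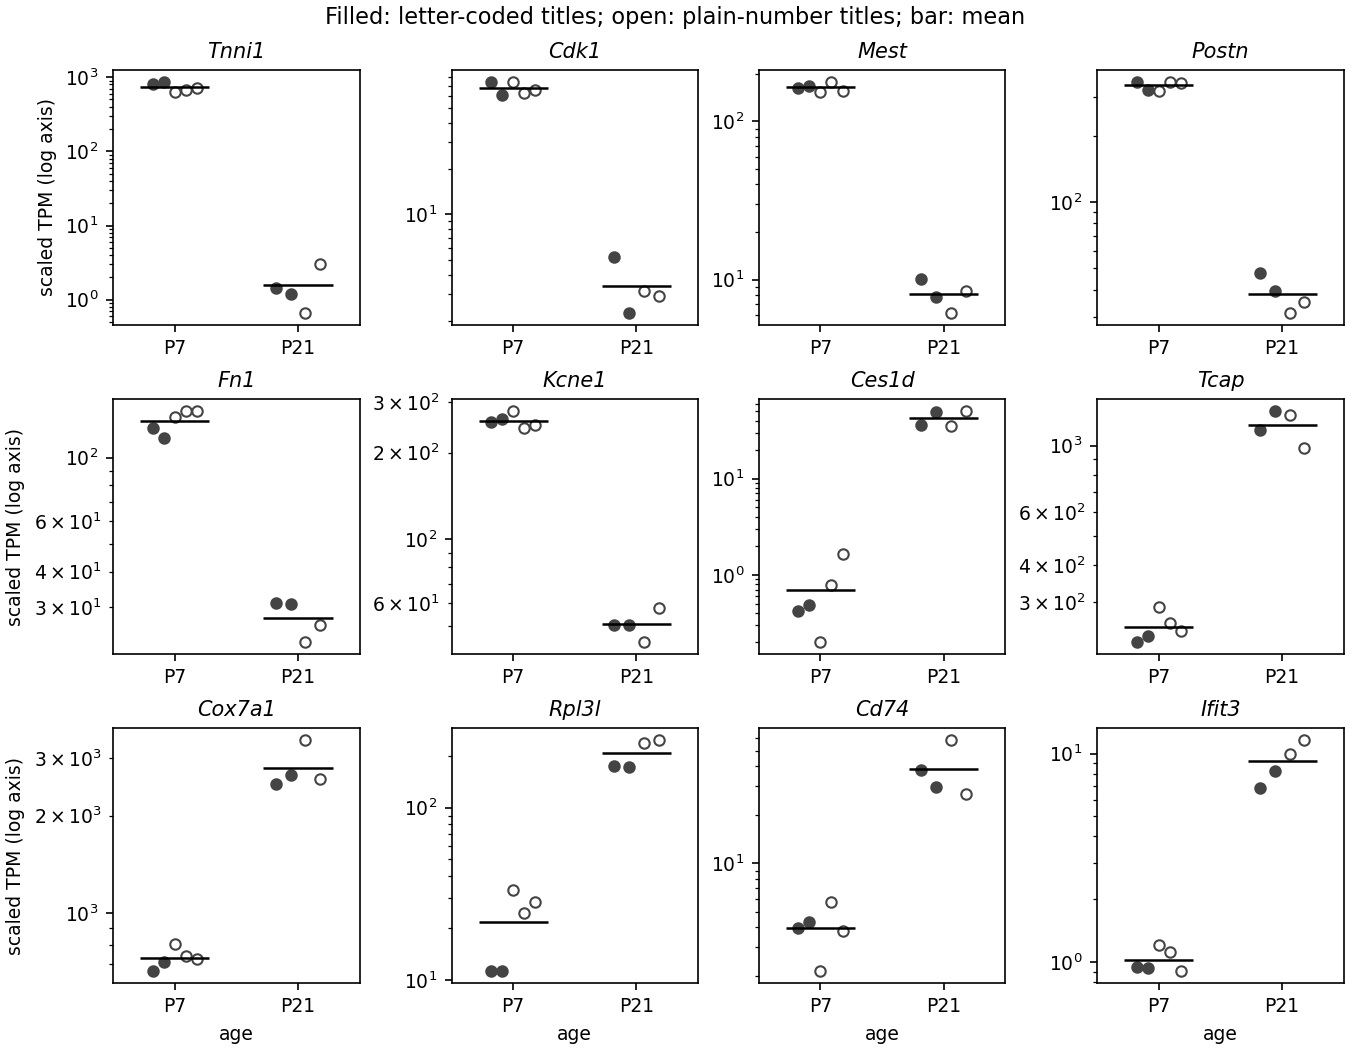
Scaled TPM (log axis) of 12 genes in each of the 9 libraries, 5 at P7 and 4 at P21, with filled points for letter-coded titles, open points for plain-number titles and a bar at the mean. In each of the 12 panels the P7 and P21 points do not overlap, and both title styles move the same way.

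Cell division genes fell together. All 50 genes of a list of DNA replication and mitosis genes were lower at P21, with no overlap between the ages in any of them and a median log2 change of -2.61, against -0.01 for all genes tested, and 46 of them passed the test for more than 2-fold. On deposited TPM all 50 were lower as well. Their summed share of deposited TPM, which needs no scaling, was 0.101% to 0.142% at P7 and 0.00835% to 0.0105% at P21. In whole heart a fall of this kind cannot be told apart between fewer cells of a type and less RNA per cell. Cdk1, the kinase that drives entry into mitosis, stood at 74.2, 60.4, 74.3, 63.1 and 65.2 at P7 and 5.24, 2.24, 3.16 and 2.89 at P21. Ccnb1, its cyclin partner, stood at 26.4, 19.2, 19.1, 18.1 and 19.2 at P7 and 0.493, 0.684, 0.524 and 0.953 at P21, under 1 TPM in every P21 library. Ube2c, the ubiquitin-conjugating enzyme of the anaphase-promoting complex, stood at 69.5, 50.4, 64, 54.6 and 54.8 at P7 and 1.82, 2.13, 3.09 and 1.31 at P21 (log2 change -4.29, SE 0.16), and Cdc20, an activator of that complex, fell by 3.74. Ccna2, the cyclin of S phase and G2, fell by 3.77, Top2a, the topoisomerase that untangles chromosomes, by 3.76, and Rrm2, the subunit of ribonucleotide reductase that limits DNA precursors, by 3.83 on the log2 scale. Birc5, survivin, and Bub1b, a spindle checkpoint kinase, fell by 3.73 and 2.97.

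The 16 tested genes of chromatin made in dividing cells were lower too, with a median log2 change of -1.64, among them Hmgb2, a chromatin protein (2.66 lower), Lmnb1, lamin B1 (2.80 lower), and H2az1, a variant histone that went from 178 ± 9.91 to 63.3 ± 3.22. Of 17 cyclins, cyclin-dependent kinases, their inhibitors and pocket proteins 11 fell and 1 rose. Cdk2 fell by 1.23, Ccne1, the cyclin of the G1 to S step, by 1.62, and Ccnd2, a D-type cyclin, by 0.93; Rbl1, the pocket protein p107, fell by 1.69, while Rbl2, the pocket protein p130 of resting cells, was the 1 that rose (0.38, SE 0.11). The ages overlapped for Rbl2, its change on deposited TPM was -0.15, and it lost the call without P21 replicate 60. The genes Depdc1a, Kif18b and Kifc5b, a transcriptional corepressor and a pair of mitotic kinesins, were listed under 0.2 deposited TPM in every P21 library and held means of 6.76, 5.43 and 4.05 scaled TPM at P7. In the deposited values 63 genes were under 0.2 deposited TPM in every P21 library with a P7 mean of 2 or more. At P7 42 were so, with a P21 mean of 2 or more. The 6 of the 63 with the highest P7 level and an assigned name were Depdc1a, Kif18b, Kifc5b and the small RNA genes Snord15a, Mir6236 and Snora5c. The 6 of the 42 with the highest P21 level and an assigned name were all genes of small RNAs (Rnu12, Snord22, Snora65, Snora69, Snora41 and Snord15b).

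The promoters of mitotic genes are known for a pair of short elements, the CCAAT box bound by NF-Y and the cell cycle homology region TTTGAA bound by the MuvB complexes. These sequences are shown because the genes that hold them moved together between the ages. They are the 120 bases before the annotated start of 5 of the genes, taken from RefSeq promoter windows of GRCm38.p6 (mm10), 5′ to 3′ on the strand of the gene, and capitals mark CCAAT and TTTGAA or, on the other strand, ATTGG and TTCAAA.
Ccnb1 promoter (chr13:100786487-100786606, minus strand): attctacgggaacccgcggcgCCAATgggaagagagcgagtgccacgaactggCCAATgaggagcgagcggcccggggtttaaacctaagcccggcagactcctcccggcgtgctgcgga
Cdc20 promoter (chr4:118437344-118437463, minus strand): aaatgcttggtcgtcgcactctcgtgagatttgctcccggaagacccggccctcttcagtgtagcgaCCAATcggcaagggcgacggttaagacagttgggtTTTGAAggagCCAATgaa
Ube2c promoter (chr2:164769809-164769928, plus strand): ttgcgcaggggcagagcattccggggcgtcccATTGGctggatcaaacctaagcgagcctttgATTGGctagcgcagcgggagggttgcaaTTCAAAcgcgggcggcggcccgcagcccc
Cdk1 promoter (chr10:69352913-69353032, minus strand): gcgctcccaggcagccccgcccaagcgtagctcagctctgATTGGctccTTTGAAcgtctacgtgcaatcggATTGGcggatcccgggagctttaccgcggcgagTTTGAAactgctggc
Top2a promoter (chr11:99024190-99024309, minus strand): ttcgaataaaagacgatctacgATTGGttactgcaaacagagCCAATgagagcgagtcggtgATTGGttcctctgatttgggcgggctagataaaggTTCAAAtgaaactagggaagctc
Counted back from the start site, TTTGAA began at -18 in Cdc20 and at -71 and -15 in Cdk1, and its reverse TTCAAA at -29 in Ube2c and -23 in Top2a, while the Ccnb1 window held a pair of CCAAT boxes and no TTTGAA. Over the 250 bases before the start, on both strands, CCAAT was in 32 of the 42 promoters found for the 50 replication and mitosis genes (76.2%), against 36.9% of the 10192 promoters of genes tested and 34.5% of all 27025 promoters of that length. TTTGAA was in 12 of the 42 (28.6%), against 10.5% of the tested genes and 16.3% of all promoters, and each of the 12 also held a CCAAT, a pair found in 4.3% of the promoters of tested genes. Of the 246 promoters of genes that fell by more than 2-fold 14.6% held both letters, and of the 184 promoters of genes that rose by more than 2-fold 5.4%. CCAAT was in 54.1% of the former and 47.3% of the latter, and TTTGAA in 19.9% and 11.4%. TTTGAA was also in 4 of 17 adult sarcomere promoters (23.5%) and in 2 of 32 complex I promoters (6.2%). The E2F-type words TTTCCCGC or TTTGGCGC were in 4 of the 42 (9.5%) and in 2.6% of the promoters of tested genes. Of the 246 and 184 promoters above 15 and 0 held them. Among lists that mostly rose, they were in 3 of 23 interferon response promoters and 2 of 32 for complexes III to V. They were in 0 of 32 complex I, 0 of 27 fatty acid and 0 of 17 adult sarcomere promoters. CCAAT was in 16 of 27 citric acid cycle promoters, 10 of 32 for complex I and 8 of 23 for interferon response. CCAAT and the E2F-type words were thus not confined to lists that fell. A match of letters is a description of the window and not a site in use.

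Most genes of the adult sarcomere list rose on the scaled values, while those of the fetal isoform list moved in both directions. Tnni1, the slow skeletal troponin I of the fetal heart (ENSMUSG00000026418; mm10, chr1:135779434-135810989, + strand), stood at 811, 865, 635, 678 and 719 at P7 and 1.45, 1.18, 0.659 and 3.03 at P21, and fell by 8.25 on the log2 scale (SE 0.23, adjusted p = 6.82e-08 in limma). Every P21 library was more than 200 times below every P7 library. Tnni3, the adult cardiac troponin I, stood at 3235, 3442, 4073, 3888 and 3943 at P7 and 7634, 8103, 8716 and 7392 at P21, and every P21 library was above every P7 library. Of 11 tested genes of the fetal list 4 fell, 2 rose and 5 did not pass. Those that fell included Tpm2, beta-tropomyosin (1.78 lower), and Myl9, a regulatory light chain of smooth muscle that was also on the list (1.65 lower). The 2 that rose were Acta1, skeletal actin (1.19, SE 0.25), and Myh7, the slow beta-myosin heavy chain, which stood at 2711, 2804, 4027, 3549 and 3517 at P7 and 5116, 5242, 6155 and 5068 at P21. Of 20 genes of the adult sarcomere list 14 rose and 6 did not pass, with a median log2 change of 0.69. On deposited TPM 8 were higher and 6 lower. The 14 include Pygm, the muscle glycogen phosphorylase, which is not a contractile protein. The summed share of deposited TPM of the adult list was 6.61% ± 0.178 (SD, n = 5) at P7 and 6.51% ± 0.244 (n = 4) at P21. Tcap, the titin cap of the Z-disc, stood at 221, 232, 288, 255 and 240.2 at P7 and 1129, 1306, 1262 and 981 at P21, about a 4.72-fold difference on the log2(scaled TPM + 1) scale. Myoz2, a calcineurin-binding Z-disc protein, rose by 1.40 and Ttn, titin, by 0.89. Myh6, the fast alpha-myosin heavy chain, rose by 0.69 (SE 0.10) and went from 6363 ± 1044 to 10001 ± 546. Myh6 and Myh7 are near-identical neighbours, so how the authors' counting split their reads is uncertain. On deposited TPM their changes were 0.11 and 0.16. The rise of the most abundant sarcomere genes is tied to the scale: after quantile normalization, which gives every library the same distribution, 10 adult sarcomere genes were higher and 5 lower. On that scale Myh6 changed by -0.09, Myh7 by 0.03, Tnnt2 by 0.07 and Tpm1 by 0.12, and none of the 4 passed (limma).

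Genes of excitation and calcium cycling rose in part. Of 25 calcium handling genes 14 rose and 7 fell (deposited TPM: 7 and 10). Atp2a2, the calcium pump SERCA2 that refills the sarcoplasmic reticulum, stood at 1739, 1938, 2433, 2017 and 2194 at P7 and 4373, 4602, 4084 and 4401 at P21, and after quantile normalization its change of 0.32 did not pass. Hrc, a calcium-binding protein inside the reticulum, stood at 127, 137, 171, 141 and 149 at P7 and 514, 540.3, 511 and 493 at P21, and the ages were apart (log2 change 1.83, SE 0.08). Trdn, triadin of the release complex, rose by 1.02, Cacna2d1, an auxiliary subunit of the L-type calcium channel, by 1.42, and S100a1, a calcium sensor of the reticulum and sarcomere, by 1.12. Sri, sorcin, fell by 0.48 and Cacna1g, a T-type calcium channel of the immature heart and the conduction system, by 0.72. Of 22 potassium and sodium channel genes 16 rose and 1 fell (deposited TPM: 8 and 7). Kcnd2 and Kcnd3 encode the pore subunits of the transient outward current that shortens the action potential of mouse heart. Kcnd2 stood at 1.21, 1.86, 1.92, 2.02 and 2.13 at P7 and 10.2, 9.71, 12.6 and 10.5 at P21, and Kcnd3 at 0.306, 0.225, 0.353, 0.402 and 0.392 at P7 and 3.75, 3.61, 3.89 and 4.79 at P21, both low genes whose ages did not overlap. Kcnip2, their auxiliary subunit, rose by 1.12 and Kcnj3, the G protein-gated inward rectifier, by 1.63. Kcne1, the small subunit of the slow delayed rectifier, was the 1 that fell, at 256, 262, 279, 243 and 249.9 at P7 and 50.3, 50.5, 43.9 and 57.9 at P21. Receptors of the autonomic nerves moved as well: Adra1a, the alpha-1A adrenergic receptor, went from 0.125 to 0.385 at P7 to 3.52 to 4.64 at P21, and Chrm2, the muscarinic receptor of the heart, rose by 1.68. In that list of 22 genes 11 rose and 5 fell (deposited TPM: 3 and 13), among the falls Gnai2, an inhibitory G protein (by 0.56).

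**Figure D3:**
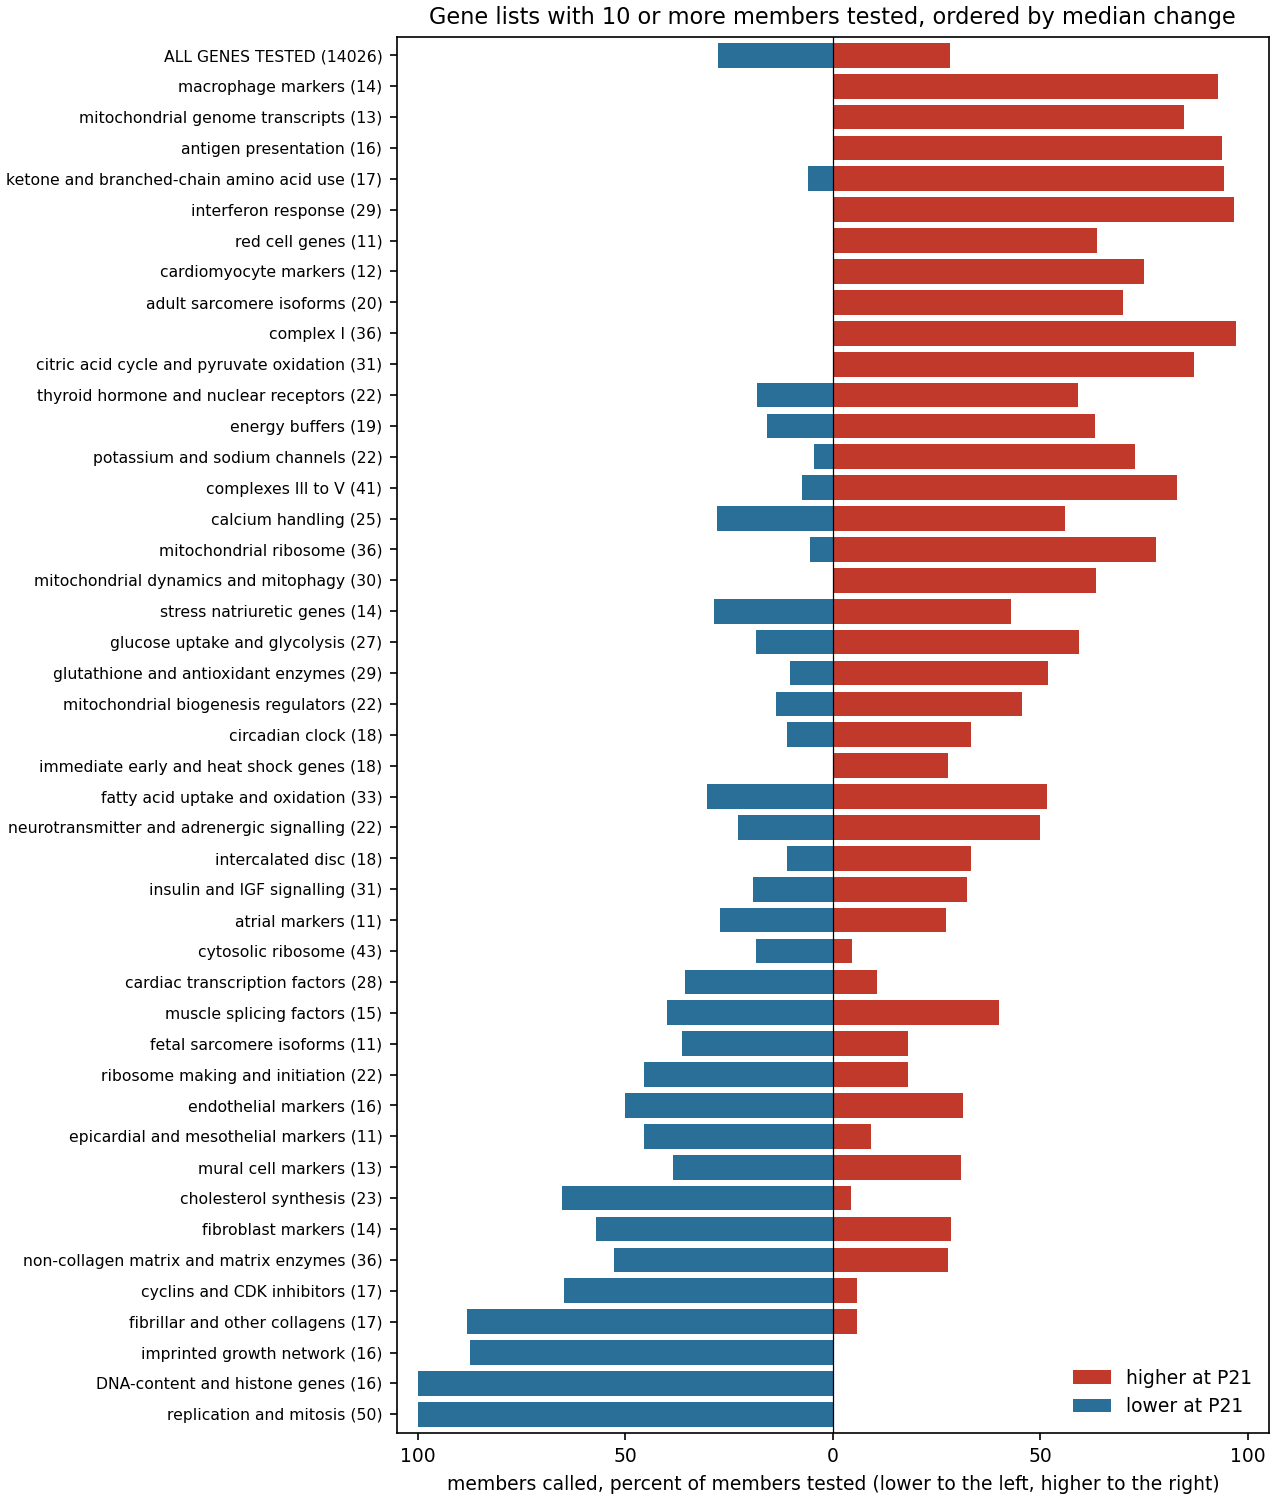
Members called higher (bars to the right) and lower (bars to the left) in percent of the members tested, for the gene lists with 10 or more members tested, whose number stands beside the name. The 50 replication and mitosis genes are all lower, 35 of 36 complex I genes are higher, and the bar for all 14026 genes tested (28.3% higher and 27.7% lower) is the background.

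On the scaled values the genes of oxidative metabolism rose almost as a block. Their mean shares of deposited TPM, which need no scaling, changed little, and the libraries of the ages overlapped. The share went from 1.24% at P7 to 1.26% at P21 for the citric acid cycle list. It went from 1.77% to 1.87% for complex I and from 5.11% to 5.21% for complexes III to V. Of 31 genes that serve pyruvate oxidation and the citric acid cycle 27 rose and 4 did not pass, with a median log2 change of 0.64 (deposited TPM: 10 higher and 5 lower). Mpc1, a subunit of the pyruvate carrier of mitochondria, stood at 258, 229, 324, 298 and 287 at P7 and 648, 663, 696 and 638 at P21; Idh3g, a subunit of isocitrate dehydrogenase, rose by 0.69 and Pdk2, a kinase that restrains pyruvate dehydrogenase, by 0.99. Of 36 complex I genes, which encode the NADH-oxidising entry of the respiratory chain, 35 rose and 1 did not pass, with a median of 0.67 and a range of 0.09 to 0.97 (deposited TPM: 14 higher and 2 lower). Ndufs1 rose by 0.71 and Ndufs7, the member of the list with the largest change, by 0.97; both are iron-sulfur subunits. Of 41 genes of complexes III to V 34 rose and 3 fell. These abundant genes depend on the scale, with 9 higher and 9 lower on deposited TPM and 14 and 12 after quantile normalization, whereas complex I had 33 higher calls there. Cox7a1, Cox8b and Cox6a2 are the forms of cytochrome oxidase subunits used in heart and muscle. Cox7a1 stood at 664, 708, 808, 739 and 725 at P7 and 2506, 2666, 3420 and 2592 at P21, while Cox8b rose by 1.12 and Cox6a2 by 1.10. Cox6a1, the form of other tissues, fell by 0.60, from 501 ± 82.9 to 321 ± 22.4, and Atpif1, the inhibitor of the ATP synthase, fell by 0.60.

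Transcripts of the mitochondrial genome itself rose in 11 of 13 genes, with a median log2 change of 1.22. On deposited TPM 10 were higher and their median was 0.73, and after quantile normalization 7 were higher and 1 lower. mt-Nd4, a complex I subunit, stood at 5541, 6171, 5949, 6014 and 5850 at P7 and 14915, 15541, 16276 and 12377 at P21, and mt-Cytb, cytochrome b of complex III, rose by 1.35. Nuclear copies of mitochondrial sequence can share reads with these genes. When the mt- and haemoglobin genes were removed before scaling, 3962 genes were higher and 3876 lower. The TPM that remained were not brought back to a fixed total, and a median ratio hardly moves when few genes are dropped. These counts therefore cannot show how far the mt- rise enters the calls. Of 36 mitochondrial ribosome genes 28 rose and 2 fell, but by little (median 0.38), and on deposited TPM 1 was higher and 20 lower, so that their direction rests on the scale. Of 30 genes of mitochondrial fission, fusion and mitophagy 19 rose and 11 did not pass (deposited TPM: 6 higher and 15 lower). Pink1, the kinase that marks damaged mitochondria, stood at 71.6, 99.0, 94.9, 93.9 and 99.6 at P7 and 222, 249.7, 259 and 259 at P21, and Mtfp1, an inner membrane protein of fission, went from 42.8 ± 5.17 to 103 ± 6.35. Oma1, the protease that cuts OPA1, rose by 0.90 and Map1lc3b, an autophagosome protein, by 0.74. Among 22 regulators of mitochondrial biogenesis 10 rose and 3 fell (deposited TPM: 4 higher and 10 lower). Perm1, a muscle partner of PGC-1 and ERR, rose by 1.01 and Twnk, the mitochondrial DNA helicase, by 0.72. Nrf1, a nuclear factor for respiratory genes, fell by 0.37. Without P7 replicate 3 the falls numbered 5.

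More fuel use genes rose than fell in each of 3 pathways on the scaled values. Ketone body and branched-chain amino acid breakdown rose almost throughout, with 16 of 17 genes higher and 1 lower and a median of 0.95 (deposited TPM: 11 and 2). Bckdha, a subunit of the branched-chain keto acid dehydrogenase, stood at 32.5, 40.7, 35.7, 38.2 and 42.2 at P7 and 115, 124, 131 and 126 at P21, and Ivd, isovaleryl-CoA dehydrogenase, rose by 1.60. Of 33 genes of fatty acid uptake and oxidation 17 rose and 10 fell, with a median of only 0.24 (deposited TPM: 6 higher and 20 lower). Lpl, the lipase that frees fatty acids from lipoproteins, stood at 327, 323, 427, 335 and 326 at P7 and 1075, 1096, 916 and 1155 at P21, and Pnpla2, the lipase of lipid droplets, rose by 1.21. Cpt1a, the liver form of the enzyme that admits fatty acids to mitochondria, stood at 38.3, 44.9, 36.1, 39.0 and 36.9 at P7 and 21.6, 17.9, 17.3 and 16.2 at P21, and the ages did not overlap. Acot2, a mitochondrial thioesterase, fell by 1.54; it has close paralogs with which it may share reads. Angptl4, a secreted inhibitor of lipoprotein lipase and a PPAR target, stood at 31.0, 43.6, 44.3, 45.7 and 35.2 at P7 and 9.44, 2.13, 4.81 and 4.50 at P21. Of 27 genes of glucose uptake and glycolysis 16 rose and 5 fell (deposited TPM: 6 and 14; quantile normalization: 10 and 7). Slc2a4, the insulin-responsive glucose carrier GLUT4, stood at 55.2, 52.7, 83.4, 72.7 and 73.3 at P7 and 159.8, 159, 195 and 180.3 at P21. Pfkm, the muscle phosphofructokinase, rose by 0.92, Pygm, the muscle glycogen phosphorylase, by 1.10 and Ldhb, the heart lactate dehydrogenase, by 0.94. Eno1, the enolase of non-muscle cells, fell by 0.54 with overlap between the ages, and Slc16a3, the lactate exporter MCT4, fell by 1.03.

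Energy buffers and defence against oxidants rose in large part. Of 19 energy buffer genes 12 rose and 3 fell (deposited TPM: 5 and 8; quantile normalization: 10 and 6). Ckmt2, the creatine kinase of muscle mitochondria, stood at 409.9, 419, 642, 513 and 541 at P7 and 2057, 2027, 2132 and 1830.3 at P21, and Ckb, the creatine kinase of brain and fetal muscle, fell by 0.84. The adenine nucleotide carrier Slc25a5, the form of dividing cells, fell by 0.41. Of 29 antioxidant genes 15 rose and 3 fell (deposited TPM: 9 and 15; quantile normalization: 14 and 7). Gstk1, a glutathione transferase of mitochondria and peroxisomes, stood at 12.1, 9.83, 12.3, 12 and 11.2 at P7 and 64, 66.4, 63.1 and 61.3 at P21, and Gstm1, a cytosolic glutathione transferase with close paralogs, at 19.8, 20.1, 24.7, 27.1 and 24.6 at P7 and 108, 121, 113 and 121 at P21. Prdx3, the mitochondrial peroxiredoxin, rose by 0.98.

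The cytosolic ribosome stayed near the median gene: of 43 ribosomal protein genes 8 fell, 2 rose and 33 did not pass, with a median of -0.08, while on deposited TPM 42 and after quantile normalization 40 were lower. That count of 8 also rests on single libraries: it was 23 without P21 replicate 57, 3 without P21 replicate 3, 4 without P21 replicate 60, and 5 without P21 replicate 2, P7 replicate 1 or P7 replicate 77. Rpl3l, a ribosomal protein paralog found in striated muscle, stood at 11.3, 11.2, 33.3, 24.6 and 28.2 at P7 and 174, 172, 238 and 247 at P21, and Rpl3, the general form, at 445, 399.8, 414, 424 and 414 at P7 and 207, 196, 212 and 179 at P21. Of a pair of elongation factors, Eef1a2, the form of adult muscle and neurons, rose by 1.54 and Eef1a1 fell by 1.45. Mean levels were 2377 TPM for Eef1a1 and 220.5 for Eef1a2 at P7, and 869.6 and 626 at P21. Of 22 genes of ribosome making and initiation 10 fell and 4 rose, among the falls Npm1, nucleophosmin (0.38 lower), and Myc, a driver of ribosome production (0.98 lower).

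Most collagen genes fell. Of 17 collagen genes 15 fell and 1 rose, with a median log2 change of -0.93 (deposited TPM: 16 lower). Col1a1 and Col3a1, the main fibrillar collagens, fell by 1.42 and 1.04, and Col18a1, a basement membrane collagen, stood at 28.2, 32.9, 37.6, 38.9 and 33.8 at P7 and 5.89, 6.36, 6.76 and 5.67 at P21. Col8a1, a short-chain collagen, was the 1 that rose (0.57); on deposited TPM it did not pass. Of 36 other matrix genes and matrix enzymes 19 fell and 10 rose (deposited TPM: 26 lower and 3 higher). Postn, periostin, a matricellular protein of growing and injured tissue, stood at 352, 324, 319, 349.7 and 348 at P7 and 47.8, 39.3, 31.3 and 35.2 at P21, and Fn1, fibronectin, at 127, 117, 139, 146 and 145 at P7 and 31.2, 30.8, 22.7 and 26.0 at P21; neither overlapped between the ages. Tnc, tenascin C, fell by 2.02 and Mmp14, a membrane-bound collagenase, by 1.74, whereas Fbln1, fibulin 1, rose by 1.01 and Lamb2, a laminin chain, by 0.64 (deposited TPM 0.07, not called). Markers of fibroblasts did not move as one: of 14 tested 8 fell and 4 rose (median -0.39), and Gsn, gelsolin, an actin-severing protein on that list, stood at 86.3, 81.5, 73.7, 91.6 and 93.7 at P7 and 499, 556, 449 and 549 at P21. How far the number of fibroblasts enters the collagen values was not tested.

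The imprinted growth genes fell as well. Of 16 genes of the imprinted network, which is known to switch off in many organs as growth after birth slows, 14 fell and 2 did not pass, with a median of -1.02. H19, a non-coding RNA beside Igf2, stood at 317, 336, 331, 357 and 334 at P7 and 32.3, 36.7, 24.5 and 28.8 at P21, and Igf2, the fetal insulin-like growth factor, at 283, 313, 336, 314 and 311 at P7 and 62.3, 56.6, 53.3 and 47.6 at P21. Mest, a hydrolase-like protein of the network, stood at 163, 168, 155, 178 and 156 at P7 and 10.047, 7.79, 6.13 and 8.40 at P21, and Plagl1, a zinc finger regulator of it, fell by 2.31. Of 31 genes of insulin and IGF signalling 10 rose and 6 fell (deposited TPM: 3 and 21): Pik3r1, a regulatory subunit of PI3-kinase, rose by 1.08 and Akt1 fell by 0.56. The candidate targets of the knockout gave log2 changes of 0.04 for Pdpk1 (SE 0.07, limma adjusted p = 0.61) and -0.04 for Pdk1 (SE 0.06, limma adjusted p = 0.616), and neither passed. On deposited TPM both were called lower, at -0.47 and -0.60, close to the change of the median gene there. Cholesterol synthesis fell in 15 of 23 genes and 1 rose; Sqle, squalene epoxidase, went from 3.19 to 5.10 at P7 to 0.605 to 1.04 at P21, and Srebf2, the regulator of the pathway, fell by 0.59.

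Among regulators, most genes of the hormone receptor list rose, while most clock genes and cardiac factors did not pass. Of 22 genes of the thyroid hormone and nuclear receptor list 13 rose and 4 fell (deposited TPM: 10 and 8). Rxrg, a retinoid X receptor, stood at 8.99, 12.4, 16.1, 12.8 and 13.6 at P7 and 43.4, 44.9, 52.9 and 45.9 at P21, and Klf9, a target of thyroid hormone and glucocorticoids, rose by 1.78. Thrb, a thyroid hormone receptor, was low and went from 1.08 to 1.71 at P7 to 4.95 to 6.68 at P21. Of 18 clock genes 6 rose, 2 fell and 10 did not pass (deposited TPM: 5 higher and 7 lower). Nr1d1 (REV-ERB alpha) stood at 10.4, 11.8, 12.5, 11.3 and 12.9 at P7 and 37.6, 39.9, 33.3 and 45.9 at P21 and Dbp, a clock output factor, rose by 1.58, while Npas2 and Cry1 fell by 0.75 and 0.67. The labels gave no hour of collection, so age and hour of day cannot be told apart for these genes. Of 28 cardiac transcription factors 10 fell, 3 rose and 15 did not pass (deposited TPM: 25 lower), and without P21 replicate 60 the rises numbered 6; Gata4 stood at 80.3, 81.0, 83.2, 87.3 and 91.3 at P7 and 45.9, 48.2, 55.2 and 50.2 at P21 and Tbx20 fell by 0.70. Yap1, the Hippo pathway coactivator, was among the 3 that rose, by 0.26 (SE 0.04), and was called lower on deposited TPM (-0.30). Splicing regulators were split on the scaled values, with 6 of 15 higher and 6 lower (deposited TPM: 2 and 12). Mbnl1, which promotes adult splice forms, rose by 0.64 (deposited TPM 0.08), and Ptbp1, a repressor of muscle exons, fell by 0.97.

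Macrophage, antigen presentation and interferon response genes rose. Of 14 macrophage markers tested 13 rose and 1 did not pass, with a median log2 change of 1.37, and on deposited TPM 11 rose. Folr2 and Lyve1 mark tissue-resident macrophages. Folr2 stood at 1.66, 0.169, 1.99, 1.70 and 2.43 at P7 and 15.3, 11.2, 19 and 15.3 at P21, Lyve1 rose by 1.42, and C1qa, a complement chain made by macrophages, stood at 16.4, 16.2, 22.1, 20.6 and 21.9 at P7 and 62.2, 54.4, 89.9 and 55.4 at P21. Mgl2, a lectin of macrophages and dendritic cells, went from 0.221 to 0.597 at P7 to 8.62 to 11.7 at P21. Of 16 antigen presentation genes 15 rose and 1 did not pass (median 1.10). Cd74, the invariant chain of MHC class II, stood at 3.95, 4.29, 2.13, 5.74 and 3.76 at P7 and 38.1, 29.9, 58.4 and 26.9 at P21, with the highest level in P21 replicate 57, and H2-Ab1, a class II chain, rose by 2.54. Of 29 interferon response genes 28 rose and 1 did not pass, with a median of 0.93, and on deposited TPM 20 rose and 1 fell. Ifit3, an interferon-induced protein, stood at 0.948, 0.939, 1.2, 1.12 and 0.902 at P7 and 6.87, 8.26, 9.89 and 11.6 at P21, and Isg15, a ubiquitin-like modifier, at 3.49, 3.51, 3.88, 2.76 and 3.03 at P7 and 10.3, 12, 9.29 and 14.1 at P21. Members of the H2, Ifit and immunity-related GTPase families are close paralogs, so reads may be split between them. The summed share of deposited TPM held by the interferon list was 0.0142% to 0.0192% at P7 and 0.0222% to 0.0285% at P21.

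The interferon-stimulated response element is the promoter element bound by interferon-activated factors. Its letters in 2 Ifit genes are shown because these genes rose together; the 200 bases before each start are from the same RefSeq windows of GRCm38.p6, 5′ to 3′ on the strand of the gene, with the element in capitals.
Ifit3 promoter (chr19:34583329-34583528, plus strand): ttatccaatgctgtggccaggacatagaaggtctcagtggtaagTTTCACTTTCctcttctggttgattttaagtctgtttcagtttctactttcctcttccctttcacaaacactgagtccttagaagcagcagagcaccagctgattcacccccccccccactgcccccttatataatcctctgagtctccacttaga
Ifit1 promoter (chr19:34640689-34640888, plus strand): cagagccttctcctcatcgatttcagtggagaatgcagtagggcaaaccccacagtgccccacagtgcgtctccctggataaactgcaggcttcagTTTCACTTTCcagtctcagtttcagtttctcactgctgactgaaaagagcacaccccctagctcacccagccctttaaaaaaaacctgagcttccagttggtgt
The word in capitals or TTTCGTTTC was searched on either strand of the 250 bases before the start. Either word was in 5 of the 23 promoters found for the interferon list (21.7%). The share was 0.5% of the promoters of tested genes and 0.4% of all promoters. These are counts of exact words and not of every form of the element. The same search for TGACCTTG, a word bound by the estrogen-related receptors, found it in 1 of 32 promoters of the complex I list (3.1%), 2 of 32 for complexes III to V (6.2%), 0 of 27 for the citric acid cycle list, 0 of 27 for the fatty acid list and 1.0% of the promoters of tested genes. The MEF2 box, searched as a pair of exact words, was in none of the 17 promoters of adult sarcomere genes and in 0.2% of the promoters of tested genes.

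Markers of the other cell types in a heart moved less uniformly. Of 16 endothelial markers 5 rose and 8 fell, or 5 fell without P21 replicate 2 or P7 replicate 3: Aqp1, a water channel, rose by 1.71 and Cldn5, the tight junction protein of endothelium, fell by 1.47. Of 13 mural cell markers 4 rose and 5 fell, among the falls Mcam, an adhesion molecule (by 1.5). Of 11 epicardial markers 5 fell and 1 rose, with Aldh1a2, the retinoic acid-making enzyme of epicardium, going from 24.2 ± 1.84 to 6.31 ± 1.21. Of the cardiomyocyte markers themselves 9 of 12 rose and 3 did not pass, against 7 higher and 4 lower on deposited TPM and 5 and 4 after quantile normalization. Of 21 lymphoid and other leukocyte markers 8 passed the filter on low values, and of these 4 fell, among them Cma1, a mast cell protease (1.21 lower), and 1 rose, Ighm, an immunoglobulin chain; without P21 replicate 60 the falls numbered 2. Red cell genes were uneven between P21 hearts: Hbb-bs, a beta-globin with a near-identical neighbour, stood at 2328, 2901, 2489, 2906 and 2122 at P7 and 5562, 8208, 7337 and 2846 at P21, and the ages overlapped. Of the lung and thymus markers 3 of 14 passed the filter, and of the skeletal muscle markers 4 of 15. Xist was above 30 TPM in 2 of 5 P7 and 2 of 4 P21 libraries, so libraries with and without it were in each age group, and none of the 5 sex genes tested passed (limma; 0 also at an unadjusted p under 0.05). What part these cell types have in the gene lists above was not tested.

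**Figure D4:**
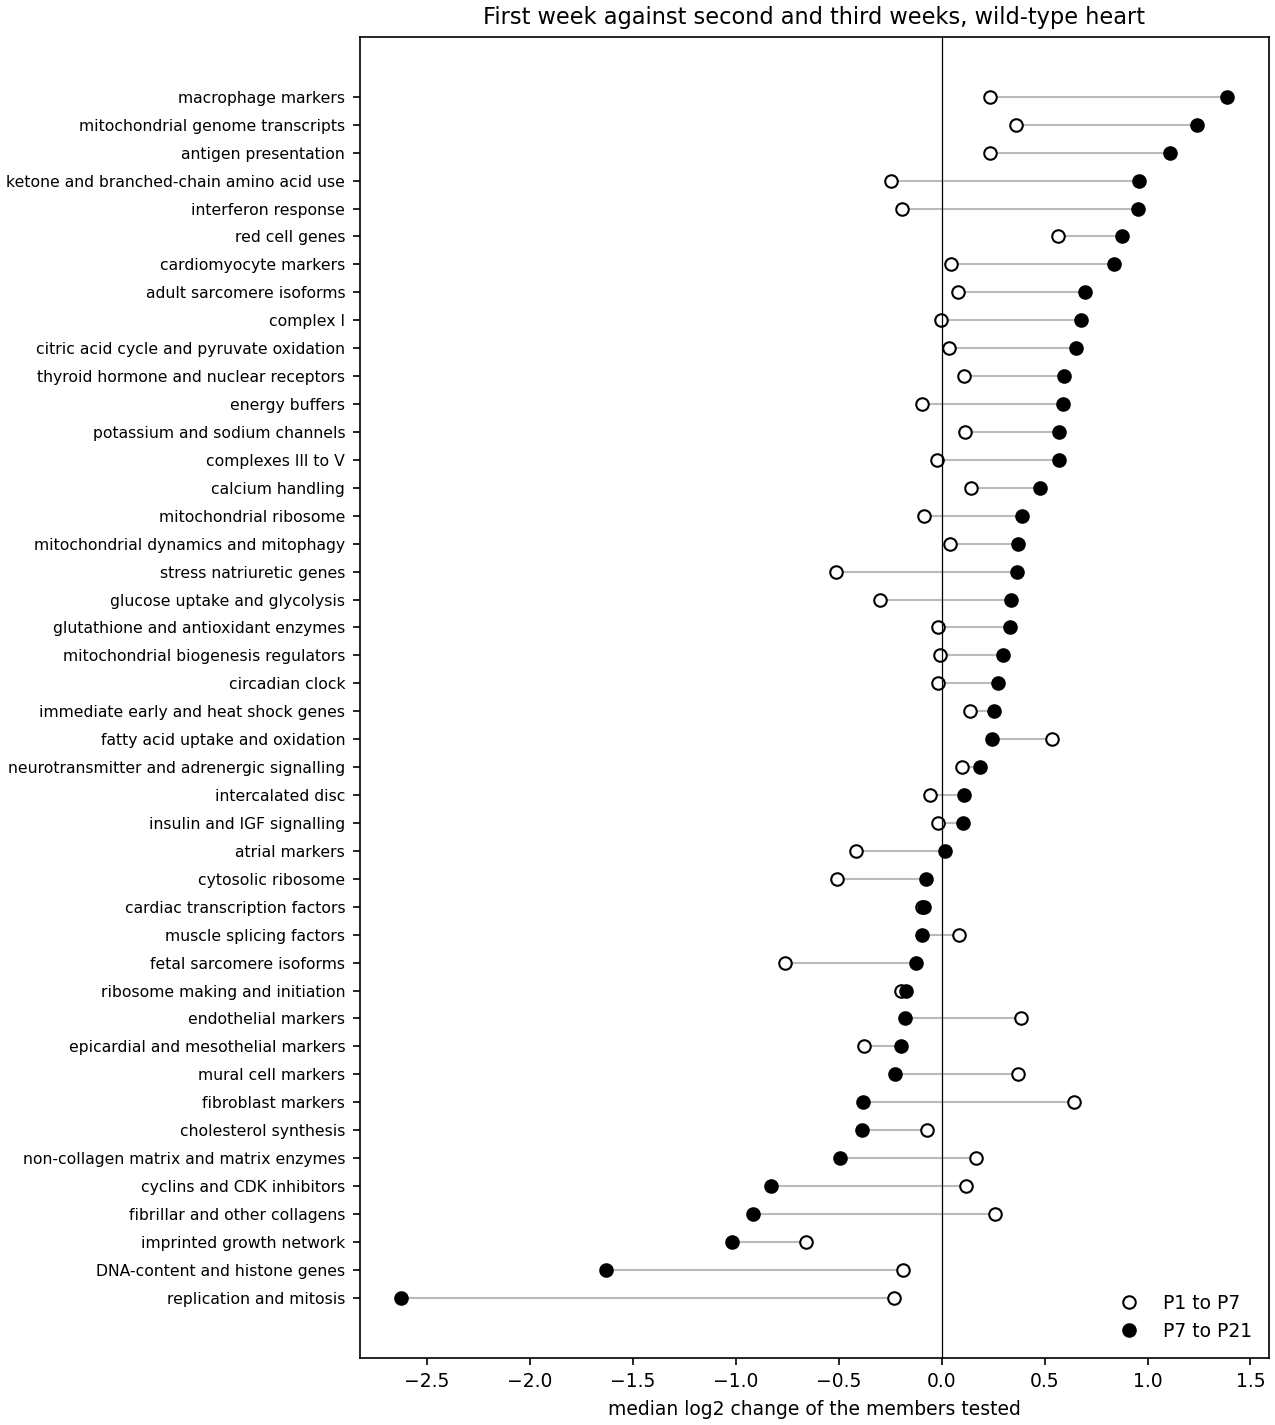
Median log2 change of the gene lists with 10 or more members tested (x), 1 list per line, over the first week (P1 to P7, open points) and over the later interval (P7 to P21, filled points), from 12 WT libraries scaled together. The 2 changes share the P7 libraries; the replication and mitosis list lies at -0.23 and -2.63.

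The change over the later interval was compared with that over the first week, P1 to P7. P1 replicate 3 held both Xist (16.9 TPM) and Eif2s3y, a gene of the Y chromosome (18.5 TPM). P1 replicates 1 and 2 held Xist at 32.6 and 28.2 and Eif2s3y at 0 and 0.147. Whether replicate 3 came from more than 1 heart was not tested, so the P1 libraries may not each be 1 heart. P1 libraries all had letter-coded titles, and the 12 WT libraries were scaled and fitted together for this contrast, (P21 minus P7) minus (P7 minus P1), which passed for 32.3% of 14429 genes (16.4% more positive and 16% more negative in the later interval). The first-week change and the later change share the P7 libraries, so each is given by its own value. The replication and mitosis genes had a first-week median of -0.23 with 18 lower and 9 higher of 50 (all genes: 14.5% lower and 13.7% higher), and 49 of 50 changed more negatively in the later interval. Collagens had a first-week median of 0.26 and 15 of 17 changed more negatively later. Of the 33 fatty acid genes 20 rose and 2 fell in the first week, and 14 changed more negatively later. The 36 complex I genes had a first-week median of -0.00, and 21 changed more positively later. Of the 29 interferon response genes 10 fell and 1 rose in the first week (median -0.19), and 20 changed more positively later. For part of that list the later rise thus followed a fall: Isg15 stood at 11.5, 5.08 and 11.6 at P1. Fabp3 rose by 1.06 in the first week before its later fall. The cytosolic ribosome fell in the first week in 38 of 43 genes and 1 rose. Myh7 fell by 1.23 in the first week, from a P1 mean of 7231 ± 930.4 (SD, n = 3), before its later rise. Some genes were lowest at P7: Klf15, a glucocorticoid-responsive regulator of metabolism, fell by 2.19 and then rose by 1.92, and Gstm1 fell by 1.69 and then rose by 2.31. Aldh2, mitochondrial aldehyde dehydrogenase, and Asb11, a muscle ubiquitin ligase adaptor, followed the same course, with 0.69 and 1.22 lost and 1.44 and 1.49 gained. Emp1, an epithelial membrane protein, rose by 0.64 and then fell by 1.64.

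**Figure D5:**
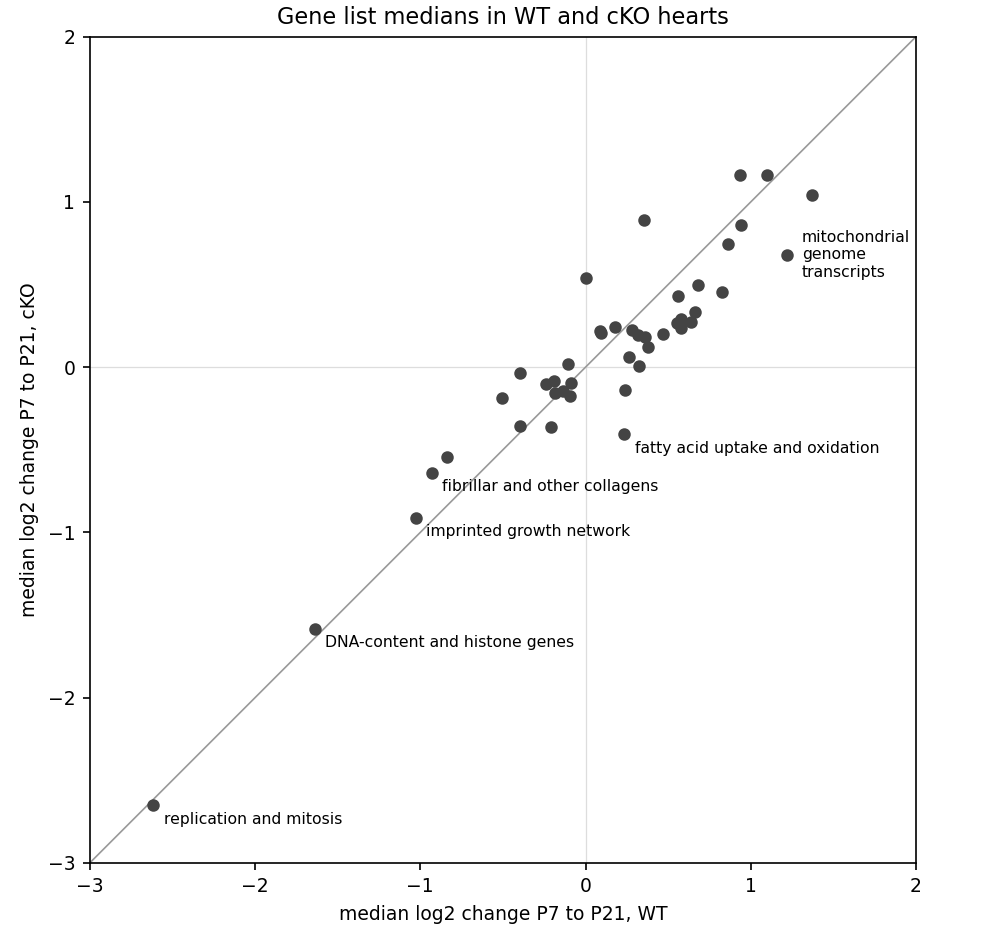
Median log2 change from P7 to P21 of the gene lists with 10 or more members tested in WT (x) and cKO (y) hearts, from 15 libraries scaled together; the diagonal marks equal change. The replication and mitosis list lies at -2.62 and -2.65, and the fatty acid list at 0.23 and -0.41.

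The course of WT hearts was set beside that of cKO hearts, whose P7 and P21 libraries are separate from the WT ones. The change itself differed between genotypes (interaction contrast in limma over 15 libraries) for 4.25% of 14530 genes, 2.7% with a more positive and 1.54% with a more negative change in WT. The replication and mitosis list had medians of -2.62 in WT and -2.65 in cKO. The fatty acid list had medians of 0.23 and -0.41, and for 18 of 33 genes the change was more positive in WT. The same held for 10 of 31 citric acid cycle genes, 8 of 41 genes of complexes III to V and 4 of 36 complex I genes. Ogdhl rose by 3.66 in WT and 1.59 in cKO, a difference of 2.07 (SE 0.22, limma adjusted p = 0.000665). Psme4 rose by 1.95 and 1.01 (adjusted p of the difference 0.000391 in limma), Tecr, an enzyme of very long chain fatty acid synthesis, by 1.56 and 0.70, and Phyhd1, a dioxygenase, by 2.15 and 0.91. Cdkl1, a kinase related to cyclin-dependent kinases, fell by 0.92 in WT and rose by 0.50 in cKO, and Bcl2, an inhibitor of apoptosis, fell by 0.54 in WT and rose by 0.83 in cKO. Tnni1 fell in both genotypes, by 8.26 and 7.22, and the test of the difference did not pass on all 15 libraries (-1.04, SE 0.38, limma adjusted p = 0.15); without P21 WT replicate 60 the difference was -1.37 and passed. These counts depend on single libraries. The number more positive in WT was 722 without P21 WT replicate 60, 138 without P7 cKO replicate 69 and 171 without P7 cKO replicate 82. It was 255 and 216 without P21 WT replicates 2 and 3, 229, 251 and 258 without P7 WT replicates 1, 76 and 77, and 218 and 241 without P21 cKO replicates 59 and 64. The number more negative in WT moved alike, between 85 and 375. With WT libraries of plain-number titles alone, the titles that cKO libraries carry, the counts were 49 and 40.

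Title style had a component of variance of its own. The first principal component of the 9 libraries held 61.6% of the variance and separated the ages, and the second held 10.4% and separated the title styles. For 1 gene of 14026 the change itself differed between the styles (limma interaction, adjusted p = 7.06e-05): Gm37375, not called between the ages, changed by 3.46 within letter-coded and by -3.07 within plain-number libraries. It was chosen after its values were seen.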

How the data were processed

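RNA of whole mouse hearts was extracted with RNA iso Plus and made into libraries with a SMARTer mRNA-Seq kit, per the labels' protocols. Per the submitters' processing notes, TopHat2 2.0.14, Cufflinks 2.2.1 and mm10 were used; the tool that made the TPM and its annotation are not given in the sources used here. The authors deposited 1 TPM table for the whole series, in which every library sums to the same total, so no read depth could be recovered and no count test was run. Columns of 2 libraries that matched no sample and 7 columns of the authors' means were not used.

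TPM of the 9 libraries were divided by median-ratio factors and tested as log2(value + 1) with limma 3.58.1 in R 4.3.3 (trended variance, group and title style, Benjamini-Hochberg adjustment over all genes tested, threshold 0.05). The test for more than 2-fold used limma treat. The interval and genotype contrasts were fitted on 12 and 15 libraries scaled together. In simulated data with 200 changed genes of 14026 the P21 against P7 fit found 84% of changes of 1 and 56% of changes of 0.5 on the log2 scale, with 3 false calls. The changes were added to already scaled log2 values with independent noise, so the scaling was not exercised. In the real comparison 7858 genes were called, so these rates check the fit and do not give its recovery or false calls there. Just outside the filter 445 genes reached 1 TPM in exactly 2 libraries, and just inside 393 reached it in exactly 3.

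The members and the 50 gene lists were chosen with earlier results of these data known, and of 1115 list entries 1016 passed the filter. Genes were named by rule: the largest changes in log2 and in TPM without overlap, the members of each list with the smallest p and those against its majority, genes near silent at 1 age, Pdpk1 and Pdk1, and the smallest p for the genotype and interval differences; placeholder names, and outside the lists haemoglobin and mt- genes, were left out. The values of 1 gene named by the rule are not reported here. Alternatives covered scaling, pseudocount, filter, model, libraries in the fit, title style and leaving out each library.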

Additional observations from a re-analysis of the deposited data

Results flagged for a closer look

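For 23 of 314 sets of replicate values (1 gene at 1 age), the highest or lowest library stood far from the others; chance gives about 1 in 20 such sets. P21 replicate 57 accounted for 11 of them. The values are scaled TPM. P21 replicate 2 was the lowest of its age for Pdk2 (200.3). P21 replicate 57 was the highest of its age for Birc5 (2.94), Cox8b (2662), Fabp3 (4916), Myh7 (6155), Myoz2 (1625), Perm1 (126), Slc25a5 (390.4) and Tbx20 (20.9) and the lowest of its age for Bcl2 (1.29), Ccnd2 (20.4) and Rbl2 (10.002). P21 replicate 60 was the highest of its age for Npm1 (144). P7 replicate 1 was the highest of its age for Ccnb1 (26.4) and the lowest of its age for Art1 (2.62), Kcnd2 (1.21) and Pink1 (71.6). P7 replicate 3 was the highest of its age for Psme4 (18.9). P7 replicate 72 was the highest of its age for Lpl (427), Lyve1 (4.49) and Ndufs1 (275) and the lowest of its age for Dbp (12.8). P7 replicate 76 was the lowest of its age for Mbnl1 (22.8).

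The P7 to P21 change differed between WT and cKO hearts by the interaction test in limma for these genes described above, as WT minus cKO on the log2 scale: Bcl2 by -1.37, Cdkl1 by -1.42, Ogdhl by 2.07, Phyhd1 by 1.24, Psme4 by 0.93 and Tecr by 0.87. The change of Gm37375 differed between letter-coded and plain-number libraries by 6.52.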

How the results depend on the processing

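No paired analysis was possible because the WT P7 and P21 titles share only 1 replicate number. Leaving out each library in turn gave 3679 to 3967 genes higher and 3522 to 3780 lower, and 203 to 253 higher and 283 to 319 lower past 2-fold. The WT and cKO difference gave 138 to 722 genes more positive and 85 to 375 more negative in WT. On deposited TPM the counts were 1192 higher and 9341 lower, 92 and 744 past 2-fold, and 133 and 1705 for the genotype difference. Plain-number libraries alone gave 2581 genes lower, and 49 and 40 for the genotype difference. Other alternatives gave P21 against P7 counts within 1.5 times the reported ones; the cause of the moves was not tested.

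Of 157 genes named with values, 5 changed sign in some setting. On deposited TPM Rbl2 changed by -0.15, Yap1 by -0.30 and Pdpk1 by -0.47; after quantile normalization Myh6 changed by -0.090. Pdpk1 changed by -0.027 within letter-coded libraries, and Pdk1 by 0.036 within plain-number libraries and by -0.067 to 0.0052 when each library was left out in turn. Another 20 values, in 15 genes, kept their sign and lost the call, and 7 genes named fell under a filter of 5 TPM and have no value there. The interval and title-style contrasts had no alternatives. Depth is unknown, so how far counting error limits the low genes could not be given.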

Other observations

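The second largest fall belonged to Gm47302, a placeholder name that the naming rule left out; it was chosen after its values were seen. Its mean was 163 ± 146 (SD, n = 5) scaled TPM at P7 and 1.45 ± 2.90 (n = 4) at P21, and the ages did not overlap (log2 change -6.22, SE 0.80, limma adjusted p = 0.000177).

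Stress-associated natriuretic and hypertrophy genes moved in both directions, with 6 of 14 higher and 4 lower (deposited TPM: 6 and 7). Intercalated disc genes, which join cardiomyocytes end to end, had 6 of 18 higher and 2 lower on the scaled values, against 3 and 14 on deposited TPM. Immediate early and heat shock genes, which can respond to handling of tissue, had 5 of 18 higher (27.8%, against 28.3% of all genes tested) and 13 that did not pass. These counts rest on single libraries: they were 3 higher without P21 replicate 3, 7 higher and 2 lower without P21 replicate 60, 4 higher and 3 lower without P21 replicate 57, and 4 higher and 1 lower without P7 replicate 1 or P7 replicate 72. Of the 577 genes past a 2-fold change 147 were in at least 1 of the gene lists and 430 were in none.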
